A study of Mus musculus with 3 samples.

Results

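The genes described here are 10 mouse genes grouped as feedback inhibitors of the ERK branch of the MAP kinase pathway. The product of 1 of them, Dusp10, acts mainly on p38 and JNK. The 10 are 6 dual-specificity phosphatase genes (Dusp1, Dusp2, Dusp4, Dusp5, Dusp6 and Dusp10), 3 Sprouty genes (Spry1, Spry2 and Spry4) and the Sprouty-related gene Spred1. They were taken by name from 21887 protein-coding genes, and all 10 were found in the annotation. These genes, and the pathway lists below, were chosen with earlier results of these data known. Shares over all genes are therefore set beside their counts as description and are no test of the group. Each was described by its peaks of H3K4me3 (trimethylation of lysine 4 on histone H3, typical of active promoters) that lay in the gene or within 5 kb of it on mm10. The cells were ovarian granulosa cells of wild-type C57BL/6 female mice aged 21 to 28 days. All animals had received 4 IU of eCG, which drives follicle growth. The first group was taken before hCG (0 h), and the other groups 4 h and 12 h after 5 IU of hCG, which stands in for the ovulatory LH surge. There was 1 chromatin immunoprecipitation library per time, from cells released by puncturing follicles, and how many mice each pool of cells came from is not stated in the labels. Differences below are therefore differences between single libraries, with no replicate check, no error and no test.

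As background, the LH surge induces EGF-like ligands in granulosa cells, and these act through the EGF receptor and RAS to activate the ERK kinases, which ovulation requires. ERK activity in turn induces its own inhibitors. The dual-specificity phosphatases remove phosphate from the threonine and tyrosine of active MAP kinases, while Sprouty and SPRED proteins act at the membrane, upstream of the kinases. Many of these inhibitor genes are early response genes, transcribed within minutes of a stimulus in other cell systems.

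Promoter sequences are shown for Dusp1, Dusp2, Dusp5 and Dusp6, because the position of the peaks around their start sites differed between times. Each line gives the 250 bases before the RefSeq start (GRCm38.p6, the assembly of mm10), 5′ to 3′ on the gene's own strand, with matches to searched motifs in capitals. The regions are chr17:26508473-26508722 on the minus strand for Dusp1, and chr2:127335909-127336158, chr19:53528895-53529144 and chr10:99262981-99263230 on the plus strand for Dusp2, Dusp5 and Dusp6.
Dusp1: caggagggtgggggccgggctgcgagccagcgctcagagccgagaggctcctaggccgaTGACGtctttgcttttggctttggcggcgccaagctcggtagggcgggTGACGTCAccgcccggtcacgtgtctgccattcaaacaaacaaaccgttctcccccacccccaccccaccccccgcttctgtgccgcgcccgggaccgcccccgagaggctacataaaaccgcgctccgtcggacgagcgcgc
Dusp2: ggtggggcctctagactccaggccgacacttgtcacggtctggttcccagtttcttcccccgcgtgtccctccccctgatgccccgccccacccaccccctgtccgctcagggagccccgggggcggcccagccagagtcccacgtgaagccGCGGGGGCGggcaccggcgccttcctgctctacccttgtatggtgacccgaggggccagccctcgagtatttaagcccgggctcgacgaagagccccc
Dusp5: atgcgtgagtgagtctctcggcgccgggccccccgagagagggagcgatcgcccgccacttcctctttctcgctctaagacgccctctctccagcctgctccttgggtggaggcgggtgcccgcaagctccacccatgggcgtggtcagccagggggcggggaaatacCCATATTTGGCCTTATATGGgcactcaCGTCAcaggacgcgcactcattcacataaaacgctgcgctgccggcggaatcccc
Dusp6: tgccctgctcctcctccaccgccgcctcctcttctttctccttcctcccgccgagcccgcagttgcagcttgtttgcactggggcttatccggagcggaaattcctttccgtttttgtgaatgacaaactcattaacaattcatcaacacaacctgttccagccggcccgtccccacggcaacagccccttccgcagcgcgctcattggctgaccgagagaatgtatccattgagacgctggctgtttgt

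The capitals in Dusp1 mark a cyclic AMP response element (CRE, TGACGTCA) at positions -143 to -136 from the start and the shorter core of that motif (TGACG) at -191 to -187. Those in Dusp2 mark an EGR motif (GCGGGGGCG) at -98 to -90. In Dusp5 a pair of adjoining CArG boxes, the motif of serum response factor, spans -82 to -63, and a core motif on the opposite strand lies at -55 to -51. The Dusp6 stretch holds none of the searched motifs. All searches covered both strands of the whole 300-base promoters, from 250 bases before to 50 after the start, and TGACG was also counted inside the full CRE. RefSeq promoters were matched for 8 of the 10 genes, which leaves Dusp4 and Spry4 named only.

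Among those 8 promoters, the full CRE was in 1, and in 1.79% of 32851 RefSeq promoters. The core motif was in 3 (Dusp1, Dusp2 and Dusp5), against 20.8% of all promoters. The CArG box was in 1, against 1.63%, the EGR motif in 1, against 2.91%, and the ETS motif CCGGAA in 1 (Spry2), against 14.9%. The AP-1 motif TGANTCA was in 0 of the 8, against 7.81%. These matches describe letters in a window and show no binding. The 8 promoters were rich in G and C, at 57.3% (Dusp6) to 72.3% (Spred1), where the median of all promoters was 52.7%. They held 19 to 40 CG dinucleotides each, where the median promoter held 7. The CRE, its core, the EGR motif and the ETS motif each contain CG. The shares over all promoters were not matched for CG content, so the counts show no enrichment of a motif.

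On chromosomes 1 to 19, X and Y the number of peaks was 22236, 23662 and 20669 at 0 h, 4 h and 12 h, and the narrowest peak measured 136, 139 and 152 bp. Breadth is given as covered bp, the length covered by peaks in a gene and 5 kb around it; the lists hold no peak height and no read depth. Of 10 granulosa markers, 8, 9 and 7 had a peak at 0 h, 4 h and 12 h, and Amh had none at any time. Their summed covered bp was 9338, 7890 and 3743 at 0 h, 4 h and 12 h. Covered bp summed to 302, 517 and 164 bp over 6 endothelial markers, with Pecam1, Cdh5 and Tek at 0 throughout, and to 838, 1668 and 891 bp over 6 immune markers, most of it at Cd68, with Csf1r, Spi1, Adgre1 and Itgam at 0 throughout. Over 5 stromal markers the sums were 0, 139 and 192 bp, with Col1a1, Dcn and Acta2 at 0, and over 4 surface epithelium markers 0, 140 and 172 bp, with Krt7, Krt19 and Upk3b at 0. The 6 oocyte markers summed to 810, 1166 and 530 bp, all at Gdf9, and the 4 theca markers to 1767, 2459 and 2419 bp, with Cyp17a1 and Insl3 at 0 throughout. The part of cell makeup in the results below was not tested, and fewer cells carrying a mark cannot be told apart from less mark per cell.

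H3K4me3 was broadest at 4 h over the ERK feedback genes as a group. A peak was present at 8 of 10 genes at 0 h and at all 10 at 4 h and 12 h, where 56.3%, 58.3% and 56.2% of all protein-coding genes had one. Their peaks covered 5762 bp at 0 h, 10927 bp at 4 h and 8255 bp at 12 h, in 16, 24 and 16 peaks. All peaks of each library covered 8.87, 10.1 and 8.93 Mb at 0 h, 4 h and 12 h, also most at 4 h. Those of the 10 genes with a peak had a median of 536.5 bp at 0 h (8 genes), 1102 bp at 4 h and 783 bp at 12 h (10 genes each). The median over all genes with a peak was 852, 916 and 845 bp, so the group's median was below that value at 0 h and 12 h and above it at 4 h. The farthest of all 56 peaks lay 2543 bp from the start site, with the long genes Dusp10 (41256 bp) and Spred1 (61209 bp) included. For Dusp4 and Spry4, which had no matched promoter, distance was taken from the nearer gene end, so closeness to a promoter is not shown for their peaks.

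**Figure D1:**
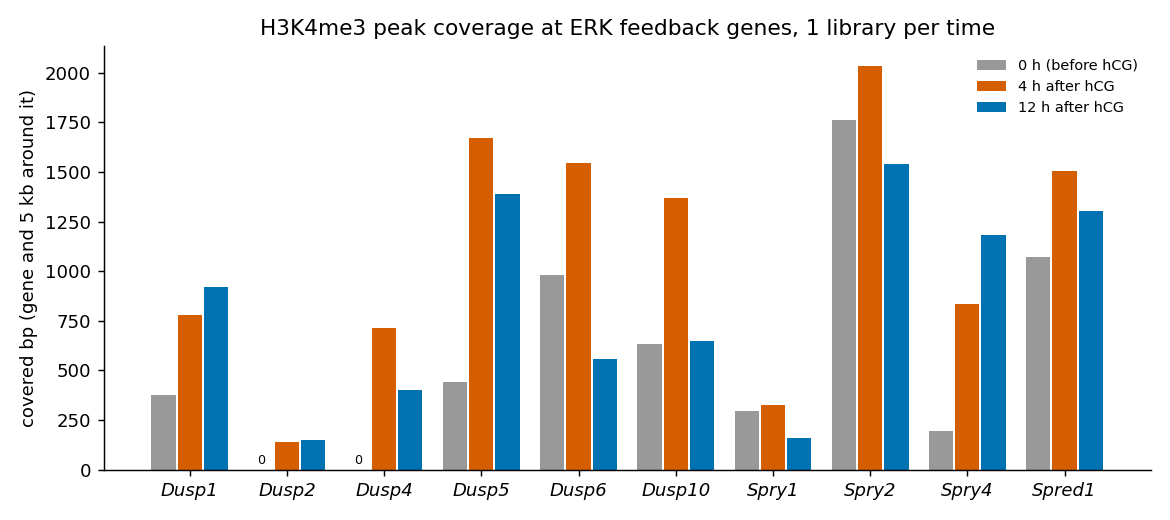
Covered bp (vertical axis, bp of H3K4me3 peaks in the gene and 5 kb around it) of each gene at 0 h, 4 h and 12 h, 1 bar per library. Of the 10 genes, 7 had their highest bar at 4 h, and Dusp2 and Dusp4 had no peak at 0 h.

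Among the phosphatases, Dusp5 had the largest gain with peaks at both times. Dusp5 encodes a nuclear phosphatase specific for ERK and lies at chr19:53529145-53541809. It had 442 covered bp at 0 h, 1674 bp at 4 h and 1387 bp at 12 h. Its centred log2 ratio, the log2 ratio of covered bp minus the median of all genes with peaks at both times, was 1.81 for 4 h over 0 h and 1.67 for 12 h over 0 h. At 0 h it had a peak of 303 bp upstream of its start and one of 139 bp inside the gene, where the narrowest peak of that library measured 136 bp. At 4 h 3 peaks of 892, 392 and 390 bp followed each other from 494 to 2354 bp downstream of the start, and at 12 h a single peak of 1387 bp covered 701 to 2087 bp downstream. By covered bp, Dusp5 was matched or exceeded by 47.2% of all genes at 0 h, 5.81% at 4 h and 7.75% at 12 h.

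Dusp6, which encodes a cytoplasmic phosphatase specific for ERK, lies at chr10:99263231-99267489. It had 983, 1547 and 560 covered bp at 0 h, 4 h and 12 h. The sum hides a change of place. At 0 h its 3 peaks of 434, 277 and 272 bp lay between positions -1924 and -402, and none lay in the gene. At 4 h a peak of 1184 bp lay 173 to 1356 bp downstream, with a further 141 bp inside the gene and 222 bp remaining upstream. At 12 h there were 262 and 298 bp downstream and none upstream. Peaks at 12 h and 0 h shared 0 bp at this gene. Counting the gene body alone, Dusp6 had 0 bp at 0 h, 1325 bp at 4 h and 560 bp at 12 h. Its centred log2 ratio was 0.54 for 4 h over 0 h and -1.33 for 12 h over 4 h. The first value depended on the window: within 1 kb of the gene it was 1.59, past the 2-fold limit, from 1467 bp at 4 h against 450 bp at 0 h, and with the gene alone Dusp6 was marked at 4 h and not at 0 h.

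Dusp1 encodes a nuclear phosphatase that acts on p38 and JNK as well as ERK, at chr17:26505591-26508472. It had 378, 782 and 919 covered bp at 0 h, 4 h and 12 h, the highest value being at 12 h. The centred log2 ratio was 0.93 for 4 h over 0 h, just short of a 2-fold difference, and 1.30 for 12 h over 0 h. With the 0 h peak of 166 bp upstream of the start not counted (the gene alone), the 4 h over 0 h value was 1.77, from 782 bp at 4 h and 212 bp at 0 h. At 4 h there were 2 peaks, of 227 and 555 bp, and at 12 h a single peak of 919 bp at 72 to 990 bp downstream. With peaks within 1 kb joined, Dusp1 covered 969 bp at 4 h and 919 bp at 12 h.

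Dusp4, which encodes another nuclear phosphatase, lies at chr8:34807610-34819894. It had no peak at 0 h, 713 bp at 4 h and 403 bp at 12 h. Both were single peaks inside the gene, and they shared 369 bp. The first lay 562 bp and the second 528 bp from the gene end of the lower coordinate. Dusp2, a nuclear phosphatase gene known from its induction in lymphocytes, lies at chr2:127336159-127338377. It also had no peak at 0 h, but only 139 bp at 4 h and 152 bp at 12 h, and these are the narrowest widths in their libraries. The 4 h peak lay across the start site, from 56 bp upstream to 82 bp downstream, and the 12 h peak 641 to 792 bp downstream, so the peaks shared 0 bp. With peaks below the 25th width percentile of each library left out, Dusp2 had 0 bp at every time.

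Dusp10, whose product acts mainly on p38 and JNK, lies at chr1:184034381-184075636. It had 631, 1370 and 647 covered bp at 0 h, 4 h and 12 h. Its centred log2 ratio was 1.0025 for 4 h over 0 h and -0.94 for 12 h over 4 h. The first value stood at the 2-fold limit, and fell short of it with a window of 1 kb (0.92) or 10 kb (0.9993). Part of this length lay over the neighbouring gene 1700056E22Rik, which ends 382 bp before Dusp10 begins. Without the peaks that touched only the neighbour, Dusp10 had 354, 789 and 354 bp at 0 h, 4 h and 12 h, with centred log2 ratios of 1.04 for 4 h over 0 h and -1.02 for 12 h over 4 h, both past the 2-fold limit.

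**Figure D2:**
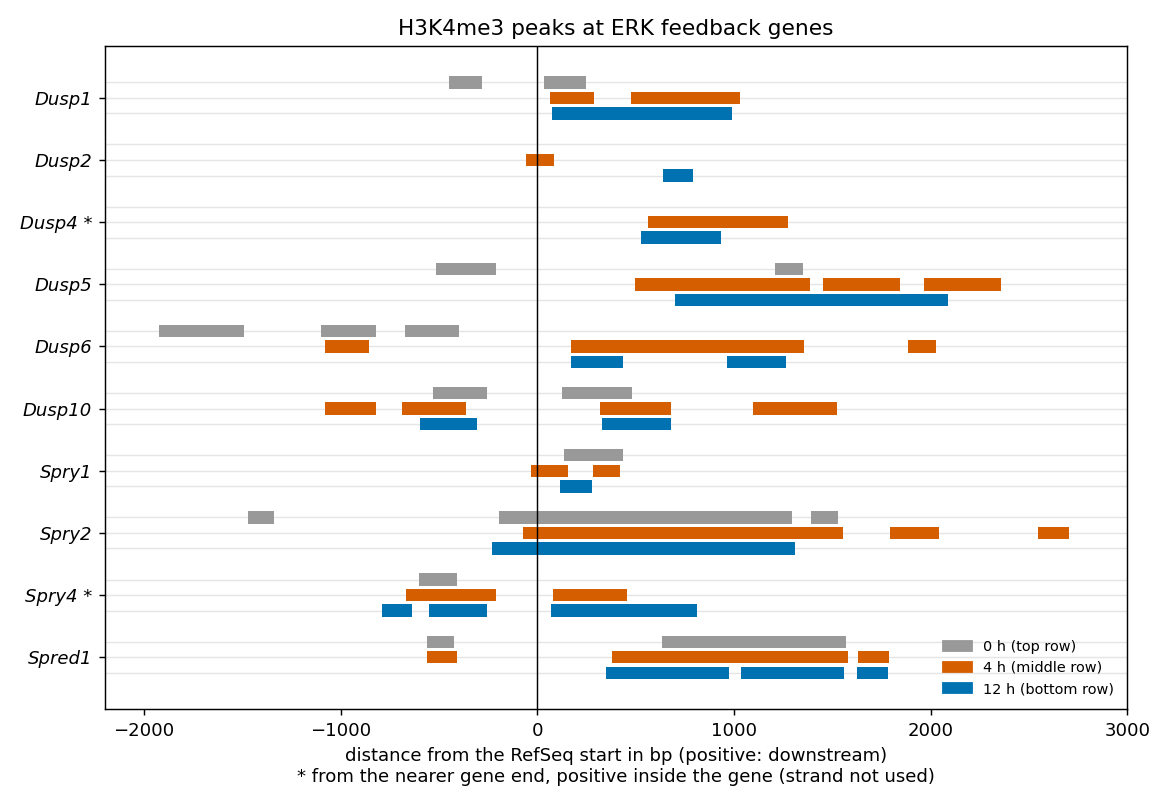
Position of every peak at the 10 genes. The horizontal axis is distance in bp from the RefSeq start, positive downstream; for Dusp4 and Spry4 it runs from the nearer gene end, positive inside the gene. Each gene has a row for 0 h, 4 h and 12 h, and at Dusp5 and Dusp6 the 4 h and 12 h bars lie mostly to the right of the line while those of 0 h lie upstream of it, apart from 139 bp at Dusp5.

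Of the Sprouty family, whose products block the activation of RAS and RAF below growth factor receptors, Spry2 carried the broadest domain, with little difference between times. Spry2 (chr14:105891947-105896819) had 1763, 2034 and 1539 covered bp at 0 h, 4 h and 12 h. It had the most covered bp of the 10 genes at each time, and 2.78%, 2.36% and 5.21% of all genes had as much or more. A single peak of 1487, 1626 and 1539 bp spanned its start at 0 h, 4 h and 12 h, and the 12 h peaks shared 1487 bp with those of 0 h. Its centred log2 ratios were 0.09 for 4 h over 0 h, -0.26 for 12 h over 4 h and -0.18 for 12 h over 0 h.

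Spry4 had large ratios set against a single 0 h peak that lay over another gene. Spry4 (chr18:38586247-38601347) had 196, 834 and 1185 covered bp at 0 h, 4 h and 12 h, with centred log2 ratios of 1.97 for 4 h over 0 h and 2.61 for 12 h over 0 h. Among the 8 genes with peaks at both times these were the largest ratios against 0 h with all peaks counted; with narrow peaks left out, Dusp5 (2.36) was above Spry4 (1.98) for 4 h over 0 h. Another gene, Arhgap26, begins 269 bp away, and the single 0 h peak, of 196 bp, lay over that gene. Without the peaks that touched Arhgap26 alone, Spry4 had no peak at 0 h, 378 bp at 4 h and 741 bp at 12 h. By that count it belonged with Dusp2 and Dusp4 as a gene first marked at 4 h, and its centred log2 ratio for 12 h over 4 h was 1.11, against 0.65 with all peaks. The 0 h peak left out lay 408 bp outside Spry4. The same count kept 0 h peaks that lay outside Dusp1, Dusp5 and Dusp6.

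Spry1 (chr3:37639947-37644599) had narrow marking throughout, with 298, 328 and 158 covered bp at 0 h, 4 h and 12 h. The centred log2 ratio was 0.02 for 4 h over 0 h, or -0.77 with narrow peaks left out, and -0.91 for 12 h over 4 h. Its peak at 12 h measured 158 bp, where the narrowest of that library measured 152 bp. Spred1, whose product binds RAS and brings the RAS inhibitor neurofibromin to the membrane, lies at chr2:117121071-117182279. It had 1071, 1506 and 1305 covered bp at 0 h, 4 h and 12 h, and the 4 h peaks covered all 1071 bp of the 0 h peaks. Its centred log2 ratios were 0.38 for 4 h over 0 h, -0.07 for 12 h over 4 h and 0.30 for 12 h over 0 h. With peaks within 1 kb joined, Spred1 covered 2349 bp at 4 h, against 1071 bp at 0 h, and its ratio of 1.07 was past the 2-fold limit.

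The order of the genes by covered bp changed between libraries. At 0 h Spry2 was followed by Spred1 and Dusp6, at 4 h by Dusp5 and Dusp6, and at 12 h by Dusp5 and Spred1. Dusp2 was at the bottom at 4 h and 12 h, next to Spry1. With 1 library per time no neighbours in these orders can be said to differ.

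Comparing 4 h with 0 h asks which feedback genes gained the mark as the ovulatory signal took hold. Of the 10 genes, 5 were broader, meaning that covered bp was at least 2-fold larger after centring or that a peak was present at 4 h alone. They were Dusp2, Dusp4, Dusp5, Dusp10 and Spry4. The same rule took in 10.6% of the 13075 genes with a peak at either time. None of the 10 was narrower by the same rule, against 5.81% of all genes, and with 10 genes a count of 0 is near that share. Of the 5 broader genes, Dusp2 rested on a single peak of 139 bp and Dusp10 stood at the 2-fold limit (1.0025). Under other settings the number broader ran from 3 to 7, while 10.6% is the share under the setting used here. The median centred log2 ratio of the 8 genes with peaks at both times was 0.74, where the median of all genes is 0 by construction. Before centring, the median over all genes was 0.12.

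Comparing 12 h with 4 h asks whether the marking lasted as the cells luteinized. Of the 10 genes, 0 were broader (5.58% of 13085 genes) and Dusp6 alone was narrower (10.2% of all genes). With 10 genes, both counts are near the shares over all genes. With peaks within 1 kb joined, the centred log2 ratio of Dusp6 was -0.82, short of the 2-fold limit, while Spry1 passed it at -1.42. The 12 h library carries another lane number, and its peak names lack a tag that the others carry; the part of these differences was not tested. The median centred log2 ratio of the 10 genes was -0.20, and before centring the median over all genes was -0.14. Dusp1, Dusp2 and Spry4 had more covered bp at 12 h than at 4 h, and the other 7 genes had less. Dusp10, at 647 bp, stood close to its 0 h value of 631 bp again.

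Across the whole interval, 12 h against 0 h, 5 of 10 genes were broader, namely Dusp1, Dusp2, Dusp4, Dusp5 and Spry4. The rule took in 9.24% of 12885 genes. None was narrower, against 9.09% of all genes, and with 10 genes a count of 0 is near that share. For the 8 genes with peaks at both times the median centred log2 ratio was 0.18. With peaks within 1 kb joined, Dusp1 covered 919 bp at 12 h, against 696 bp at 0 h, and was no longer 2-fold broader. The comparisons share libraries and are not independent of each other. The 12 h library differs from that of 0 h too in lane number and peak names, here and in the downstream shares below. The part of these differences was not tested.

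**Figure D3:**
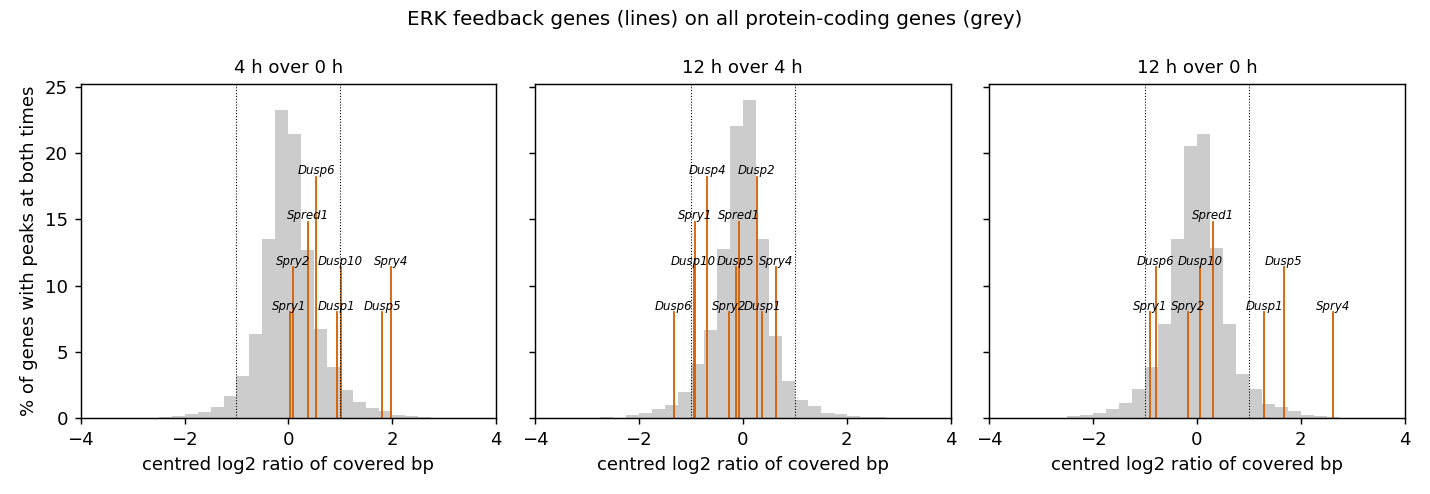
Centred log2 ratio of covered bp (horizontal axis) for all protein-coding genes with peaks at both times (grey bars, % of genes on the vertical axis, outer values collected in the last bars). Orange lines mark the feedback genes and dotted lines a 2-fold difference; for 4 h over 0 h all 8 lines lie above 0, while for 12 h over 4 h 7 of 10 lie below it. Dusp2 and Dusp4 are absent from panels with 0 h, where they had no peak.

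At Dusp1, Dusp5 and Dusp6 the mark lay mainly downstream of the start after hCG, whereas at 0 h some or all of it lay upstream. For the 8 genes with a known strand, covered bp within 5 kb of the start was split into the parts upstream and downstream of it, a measure added after the peaks had been seen. The downstream share at Dusp6 was 0% at 0 h, 85.6% at 4 h and 100% at 12 h. Dusp5 had 31.4%, 100% and 100% at these times, and Dusp1 56.1%, 100% and 100%. Dusp10 had 56.1%, 57.6% and 54.7%. The other 3 genes with a peak at 0 h were above 75% at that time and could not have gained 25 percentage points. Spred1 had 87.3%, 89.8% and 100%. Spry2 had 81.2%, 96.5% and 85.1%, and Spry1 100%, 89.3% and 100%. Dusp2 had no peak at 0 h, then 59.7% and 100%.

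A share at least 25 percentage points higher at 4 h than at 0 h was found at 3 of the 7 genes with peaks at both times (Dusp1, Dusp5 and Dusp6), against 5.75% of 8897 genes with a known strand. The median share over all these genes was 100% at each time, so most of them had no room to gain. Of the genes at 75% or less at 0 h, a subset added after this result was seen, 3 of 4 feedback genes gained that much (all but Dusp10), against 16.0% of 3193 genes. A share that much lower was found at 0, against 4.8% of the 8897. For 12 h against 0 h the counts were 3 higher and 0 lower of 7, against 7.38% and 5.48% of 8702 genes, and 3 of 4 with room to gain, against 20.6% of 3116. For 12 h against 4 h they were 1 higher (Dusp2, with its narrow peaks) and 0 lower of 8, against 5.62% and 4.65% of 8855 genes, and 1 of 2 with room to gain, against 16.3% of 3048. With 7 or 8 genes, a count of 0 lower is near the share over all genes in each comparison. Summed over the 8 genes, downstream coverage came to 3370, 8261 and 6145 bp at 0 h, 4 h and 12 h, and upstream coverage to 2196, 1119 and 522 bp. The downstream part was 60.5%, 88.1% and 92.2% of the sum at 0 h, 4 h and 12 h, while over all genes with a known strand it was 76.1%, 77.3% and 78.0%. Dusp6 held 983 of the 2196 bp upstream at 0 h and 0 bp downstream, so the 0 h share of the sum leaned on that gene. The Dusp1 difference rested on its 0 h peak of 166 bp. With peaks below the 25th width percentile left out, Dusp1 was at 100% at every time, and Dusp5 and Dusp6 were at 100% and 84.2% at 4 h, against 0% for both at 0 h.

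**Figure D4:**
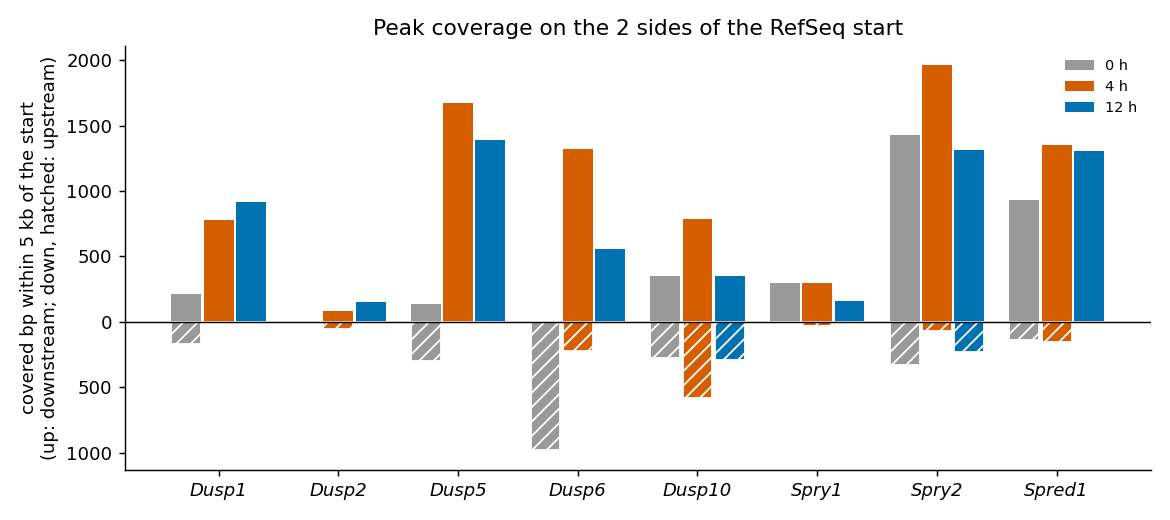
Covered bp within 5 kb of the RefSeq start for the 8 genes with a known strand, downstream (plain bars, upward) and upstream (hatched bars, downward), at 0 h, 4 h and 12 h. Dusp6 had 222 bp upstream and 1325 bp downstream at 4 h, against 983 bp upstream and 0 downstream at 0 h.

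The printed stretches before the start were mostly outside the peaks. The 250 bases shown for Dusp6 had no peak at any time, since the nearest peaks ended 402 bp upstream and began 173 bp downstream. A peak touched the 300-base promoter of 3 of the 8 genes at 0 h (Dusp1, Dusp5 and Spry2), of 3 at 4 h (Dusp2, Spry1 and Spry2) and of 1 at 12 h (Spry2). Over 17492 protein-coding genes this was so for 21.4% at 0 h, 24.0% at 4 h and 21.0% at 12 h. The overlap at 0 h was 15 bp for Dusp1, 37 bp for Dusp5 and 245 bp for Spry2. The Dusp2 peak of 4 h covered 106 bp of its promoter, part of it within the sequence shown and none of it over the EGR motif.

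Other genes of the pathway were described by the same rule. Among 10 other inhibitors, all with peaks at every time, 2 were broader at 4 h than at 0 h (10.6% of all genes) and 3 at 12 h than at 0 h (9.24% of all genes). The first count is near the share over all genes. Their median centred log2 ratios were 0.38 for 4 h over 0 h and 0.67 for 12 h over 0 h. Errfi1, an inhibitor of the EGF receptor, had 757, 1702 and 1774 covered bp at 0 h, 4 h and 12 h, and the RAS GTPase-activating protein gene Rasa2 had 280, 750 and 969 bp. Lrig1, which promotes loss of EGF receptor family proteins, had 315, 530 and 943 bp. None of these inhibitors was narrower in any comparison. Over all genes 5.81% were narrower at 4 h than at 0 h. At 12 h 10.2% were narrower against 4 h and 9.09% against 0 h. With 10 genes, a count of 0 is near these shares.

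Of 7 other MAP kinase phosphatase genes, 5, 6 and 5 had a peak at 0 h, 4 h and 12 h, and Dusp9 had none at any time. The median centred log2 ratio was 0.17 for 4 h over 0 h and -0.27 for 12 h over 4 h. Of the 6 with a peak at either time 1 was broader at 4 h than at 0 h (10.6% of all genes) and 2 were narrower at 12 h than at 4 h (10.2% of all genes). Dusp14 was marked at 4 h alone, with 154 bp. Dusp7, an ERK phosphatase gene of the same cytoplasmic class as Dusp6, had 933, 990 and 292 bp and was narrower at 12 h against 4 h (centred log2 ratio -1.62) and against 0 h (-1.66). For 12 h against 0 h it was the 1 narrower of 5 genes with a peak at either time, against 9.09% of all genes.

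Among 14 ERK-regulated transcription factor genes 5 were broader at 4 h than at 0 h and 0 narrower, against 10.6% and 5.81% of all genes. At 12 h 4 were broader than at 0 h, against 9.24% of all genes. The median centred log2 ratio was 0.27 for 4 h over 0 h. Egr1 had 779, 2726 and 1754 covered bp at 0 h, 4 h and 12 h. The ETS factor gene Etv5 had 0, 977 and 1203 bp, and its relative Etv4 had 0, 508 and 243 bp. Egr2 had 290, 962 and 371 bp. It was the 1 gene of these 14 narrower at 12 h than at 4 h, against 10.2% of all genes. Fosl1, an AP-1 gene, had 269, 810 and 892 bp.

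For the kinases and adaptors the counts were near or below the share over all genes, 10.6% broader at 4 h than at 0 h and 9.24% at 12 h than at 0 h. The share narrower at 4 h than at 0 h was 5.81%. Of 14 genes from RAS to ERK and its RSK targets, 13, 14 and 14 had a peak at 0 h, 4 h and 12 h, and their median centred log2 ratio was 0.03 for 4 h over 0 h. In this list 1 gene was broader at 4 h than at 0 h, the RSK kinase gene Rps6ka1, with 0, 169 and 166 bp at 0 h, 4 h and 12 h. Map2k2, which encodes a MEK kinase, had 799, 1221 and 363 bp. It was the 1 gene of the 14 narrower at 12 h than at 4 h (10.2% of all genes). The same held for 12 h against 0 h (9.09% of all genes). Of 9 receptors and adaptors, all marked at every time and with a median of -0.02, 0 were broader or narrower at 4 h than at 0 h, and Sos1, a RAS exchange factor gene, was broader at 12 h than at 0 h, with 393, 632 and 984 bp. No test was made of any difference between these lists.

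Spry4 had the largest centred log2 ratio for 4 h over 0 h among the 8 feedback genes with peaks at both times, all peaks counted. Its pattern over 3 libraries was compared with the 54 genes of these lists by the summed absolute difference in log2(covered bp + 100). The nearest were Fosl1 at 0.73, Rasa2 at 0.76 and Sos1 at 1.33. The Spry4 values in this measure include the peaks over Arhgap26.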

How the data were processed

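The authors deposited 1 peak list per library; each line holds a named interval, without score or height. Per the submitters' processing notes, CASAVA 1.8, Bowtie2 2.2.3, MACS2 2.0.9 and mm10 were used; the peak threshold, and whether the input served as control, are not stated there. Per the labels, libraries had 18 PCR cycles, and their descriptions give lane 4 at 0 h and 4 h and lane 5 at 12 h. Individual peaks are named with a nolambda tag at 0 h and 4 h and without it at 12 h, although all lists carry it in their titles; whether calling differed is unknown. Read depth is unknown.

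Genes and strands came from RefSeq tables of GRCm38.p6, with strand for 17492 of 21887 protein-coding genes; of several starts the one at the gene's annotated end was used, or else the first listed. Positions are counted from 1. Covered bp was summed per gene with 5 kb around it. Log2 ratios were centred on the median of all genes with peaks at both times, and 2-fold limits were applied, in Python 3.11.15 with pandas 2.3.3. The code was tested on simulated data. Genes of the pathway lists are named where they passed the 2-fold rule, up to 4 per list and comparison. Etv4 was beyond that number for 4 h against 0 h. The members and lists were chosen with earlier results of these data known. Alternatives changed the window, the peaks used and the centring.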

Additional observations from a re-analysis of the deposited data

How the results depend on the processing

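No paired analysis was possible because each time has 1 library. Of 123 summary values recomputed under other settings, 110 stayed within 1.5 times the count or 0.25 in log2. Within 2 kb of the start, where Dusp4 and Spry4 drop out, 3 genes were broader at 4 h and 3 at 12 h, both against 0 h. For 12 h against 4 h, 1 gene was broader with the gene alone, with equal numbers of the widest peaks (20669 per library) and without neighbouring genes' peaks, a setting chosen after seeing the data. In the same comparison 2 were narrower with the gene alone, without narrow peaks and without neighbours' peaks, and 3 with no centring, and the median log2 ratio was -0.66 with peaks within 1 kb joined. Without narrow peaks 1 gene was narrower at 12 h against 0 h. No share of all genes is given under these other settings, so these counts cannot be set against one. The 12 h against 4 h count of higher downstream shares was 0 without narrow peaks and with equal numbers. Of 220 ratios of single genes recomputed, 188 stayed within 0.25, and 0 of those past the 2-fold limit changed sign. The Dusp6 ratio for 12 h over 0 h, not past that limit, was 0.33 with a 1 kb window and -0.79 with 5 kb. Peak width depends on depth and threshold, which are unknown, and values near 136 to 152 bp stand at the narrowest width a list holds.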
